A study of Mus musculus with 6 samples.

Results

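The genes of MHC class I antigen processing were examined in bone marrow-derived macrophages that were stimulated with lipopolysaccharide (LPS) and measured on expression arrays. The 9 genes were taken by name: the immunoproteasome subunits Psmb8, Psmb9 and Psmb10, the proteasome activator subunits Psme1 and Psme2, the peptide transporter subunits Tap1 and Tap2, the loading factor Tapbp and the class I light chain B2m. They stand among 12393 genes that have a probe set of their own. Every probe set annotated to a member was used, which gave 13 probe sets for 8 of the 9 genes. For Psme2 there was 1 probe set, annotated to both Psme2 on chromosome 14 and Psme2b on chromosome 11, so its signal may come from either gene and it is given separately from the 8.

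The macrophages came from IκBβ-knockout (KO) and wild-type (WT) mice, all labelled C57BL/6J. IκBβ, encoded by Nfkbib, is an inhibitor of the transcription factor NF-κB. Cells of each genotype were grown from bone marrow for 7 days in medium with 30% L929-conditioned supernatant, a source of the macrophage growth factor CSF1, and were taken at 0 h, 1 h and 5 h of LPS at 1 µg/ml. The 6 arrays are thus KO at 0, 1 and 5 h and WT at 0, 1 and 5 h, with 1 array each. The labels do not say how the deletion was made, how old the mice were or whether cells of several animals were pooled.

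Values are MAS5 signals on a linear scale, which the authors had scaled to a common trimmed mean (500.2 to 500.3 on the 6 arrays). Array medians were 117.0, 98.7 and 65.2 in KO and 113.4, 105.1 and 70.7 in WT at 0, 1 and 5 h. Nfkbib read 30.5, 136 and 56.1 in KO, against 477, 3329.9 and 5007 in WT. Xist read 5634, 4189 and 2149 in KO, against 52.1, 80.4 and 62.1 in WT, and Y-linked Eif2s3y read 0.896 to 10.7 in KO, against 569.7 to 859.9 in WT. The KO arrays therefore carry female and the WT arrays male RNA, and genotype and sex cannot be told apart below. All 9 macrophage markers lay above the array median on all 6 arrays, with a summed signal of 83160 to 90420 in KO and 89490 to 93490 in WT. None of the 5 measured T and NK cell markers did. Of 6 measured B cell markers 2 or 3 did. Ighm, one of these, fell at 5 h, and the summed B cell signal was 3909, 2854 and 445 in KO and 3724, 2594 and 458 in WT at 0, 1 and 5 h. The part of B cells in the results was not tested, and in bulk RNA fewer cells of a type and less RNA per cell cannot be told apart. Of 6 dendritic cell markers 1 or 2 lay above the array median, of 7 neutrophil markers 0 to 2 and of 7 fibroblast markers 0 or 1. The summed neutrophil signal was 255, 188 and 1312 in KO and 239, 239 and 707 in WT. Most of it at 5 h was S100a8, which read 1135 in KO and 499.97 in WT then. Over both genotypes it was 8.88-fold higher at 5 h than at 0 h. S100a8 exceeded an array median only at 5 h, so it entered the test only through the arrays where it was high, and no p-value is given. Camp was the only other neutrophil marker above the array median at 5 h (88.6 in KO and 92.9 in WT), whereas S100a9 read 2.83 and 26.2. The part of neutrophils in the results was not tested.

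MHC class I molecules show peptides from inside the cell to CD8 T cells. The proteasome cuts cytosolic proteins into peptides, and in the immunoproteasome the subunits Psmb8, Psmb9 and Psmb10 take the places of the constitutive catalytic subunits Psmb5, Psmb6 and Psmb7. The PA28 ring of Psme1 and Psme2 opens the proteasome, the Tap1-Tap2 transporter carries peptides into the endoplasmic reticulum, and tapasin (Tapbp) holds the empty heavy chain, bound to B2m, next to the transporter. Most of these genes are textbook targets of interferon signalling.

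At 5 h of LPS 7 of the 8 genes with a probe set of their own had risen when both genotypes were fitted together with limma, and B2m did not pass. Tap1 rose 7.69-fold and Tap2 4.99-fold, the immunoproteasome subunits 2.58-fold to 3.09-fold, Psme1 2.23-fold and Tapbp 1.56-fold. At 1 h 0 of the 8 were called in either direction at a Benjamini-Hochberg adjusted p under 0.05, and 0 of the 8 were called between KO and WT. At an unadjusted p under 0.05 the limma counts were 1 of 8 at 1 h (Tap1), where 3974 of the 13101 tested probe sets passed, and 0 of 8 between genotypes, where 1104 did. Over all 13101 tested probe sets 20.8% were called higher and 49.8% lower at 5 h (70.6% in all), 5.32% higher and 4.6% lower at 1 h (9.92% in all), and 0% higher and 0.0305% lower in KO against WT. The median log2 change of the 8 genes was 1.42 at 5 h and −0.11 at 1 h, against −0.48 and −0.17 for all probe sets. On both 5 h arrays each of the 8 genes was above its 4 signals at 0 h and 1 h, which was so for 22.3% of all probe sets.

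**Figure D1:**
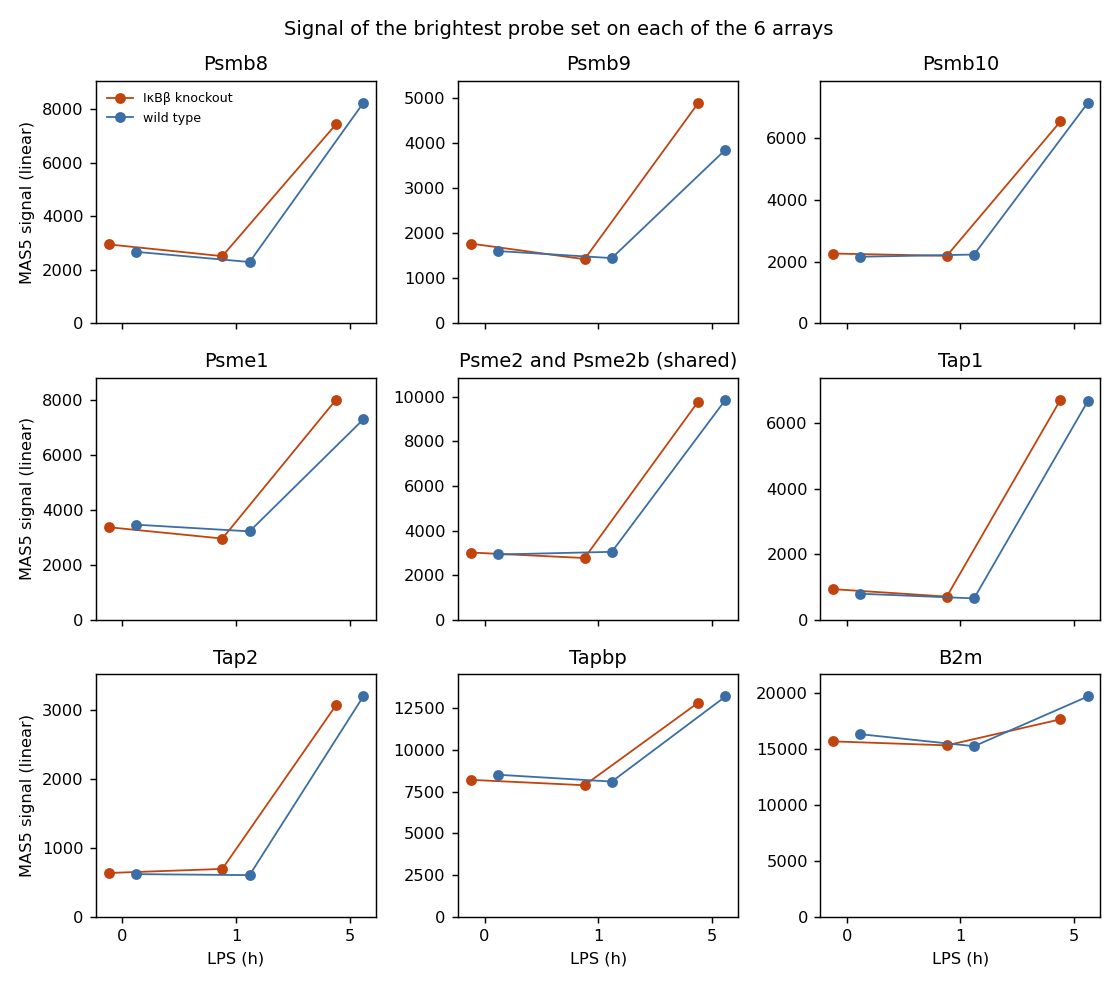
Signal of each member's brightest probe set (linear MAS5 scale from 0) on the 6 arrays, by hours of LPS (categories, not to scale), with knockout and wild type offset and joined by lines; each point is 1 array. Every panel changes little between 0 h and 1 h and is higher at 5 h, with the largest relative step in Tap1 (942 and 6709 in KO at 0 h and 5 h, 802 and 6663 in WT) and the smallest in B2m.

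Psmb9 and Tap1 lie back to back on chromosome 17 and share the stretch between their start sites, with Psmb8 and Tap2 next to them. The sequences of that stretch and of the 200 bases before the starts of Psmb8 and B2m are shown. They were picked because Tap1, Psmb9 and Psmb8 were each called higher at 5 h, whereas B2m did not pass, except after median centring. Whether these sequences bear on the changes was not tested. They are RefSeq sequences of GRCm38.p6, all on the plus strand and 5′ to 3′, with motif matches in capitals; no match overlaps another.
Tap1 and Psmb9, chr17:34187331-34187555: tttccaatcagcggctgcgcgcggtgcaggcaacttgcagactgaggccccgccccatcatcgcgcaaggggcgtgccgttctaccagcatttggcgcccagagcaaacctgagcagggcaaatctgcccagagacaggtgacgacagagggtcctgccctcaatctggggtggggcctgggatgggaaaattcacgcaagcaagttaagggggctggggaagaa
Psmb8, chr17:34197995-34198194: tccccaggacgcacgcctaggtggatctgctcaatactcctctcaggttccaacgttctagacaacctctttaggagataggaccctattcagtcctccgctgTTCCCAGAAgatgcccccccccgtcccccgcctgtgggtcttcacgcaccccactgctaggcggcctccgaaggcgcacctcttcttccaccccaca
B2m, chr2:122147487-122147686: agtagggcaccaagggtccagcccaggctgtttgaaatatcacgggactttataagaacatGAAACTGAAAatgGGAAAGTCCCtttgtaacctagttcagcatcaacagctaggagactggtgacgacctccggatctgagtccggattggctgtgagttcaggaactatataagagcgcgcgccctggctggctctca

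The motifs searched, on both strands of the 300 bases from 250 before to 50 after each start, were GAAA, any 2 bases and GAAA again (the interferon-stimulated response element type), TTCNNNGAA (the STAT-binding GAS type) and GGGA, any 2 bases and TTCC (an NF-κB type). Of all 32851 promoter windows in the table, 3.44%, 8.3% and 1.47% held them in that order. Windows were present for 8 of the 9 members. B2m held GAAACTGAAA at positions −139 to −130 before its start and the NF-κB type, read on the minus strand, at −126 to −117. Psmb8 held the GAS type at −97 to −89 (the letters match on both strands), and Psme1 held the interferon type within the transcribed part at 10 to 19 on the minus strand. The windows of Psmb9, Psmb10, Psme2, Tap1 and Tapbp held none of these letters, which says nothing of the factors that bind there.

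Psmb8, the chymotrypsin-like subunit of the immunoproteasome, read 2947, 2509 and 7429.6 in KO at 0, 1 and 5 h of LPS, against 2671, 2289.8 and 8222 in WT. It was lowest at 1 h in each genotype and highest at 5 h. Its 5 h log2 change was 1.48 (95% interval 1.12 to 1.84, SE 0.13; limma, adjusted p = 0.00127). At 1 h it was −0.23 (adjusted p = 0.305).

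Psmb9, the subunit that stands in for Psmb6, read 1768, 1422 and 4882 in KO, against 1602, 1446 and 3849 in WT. The 5 h signals were far above the others in both genotypes, and the KO signal was the higher of the 5 h pair. Against 0 h, the 5 h log2 change was 1.36 (95% interval 0.99 to 1.74, SE 0.14; limma, adjusted p = 0.00174).

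Psmb10, which replaces the trypsin-like subunit Psmb7, read 2262, 2189 and 6541 in KO, against 2157, 2229.6 and 7137 in WT. Its signals at 0 h and 1 h were nearly level. It had the largest rise of these 3 subunits at 5 h, with a log2 change of 1.63 (95% interval 1.32 to 1.94, SE 0.11; limma, adjusted p = 0.000758), though the 3 intervals overlap.

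The constitutive subunits that they replace had log2 changes between −0.56 and 0.49 at 5 h. Psmb5 read 2114, 1899 and 2272 in KO, against 2213, 1910.1 and 2394 in WT, and its log2 change at 5 h was 0.11 (limma, adjusted p = 0.403), but 0.87 after median centring (adjusted p = 0.00379). Psmb6 rose by 0.49 (adjusted p = 0.0151), but by 0.28 after quantile normalization (adjusted p = 0.0697). Psmb7 fell by 0.56 (adjusted p = 0.0191), but stood at 0.20 after median centring (adjusted p = 0.328). The log2 ratio within an array is unchanged by a single scaling factor per array, as in median centring, but quantile normalization can change it. On the deposited scale, between 0 h and 5 h Psmb8 over Psmb5 changed by 1.23 in KO and 1.51 in WT. Psmb9 over Psmb6 changed by 1.00 in KO and 0.75 in WT, and Psmb10 over Psmb7 by 1.94 in KO and 2.43 in WT. At 1 h these ratios had changed by −0.08 and −0.01, by −0.43 and −0.27, and by −0.05 and 0.09 in KO and WT. The calls of Psmb6 and Psmb7 were each lost without the KO 0 h array or the WT 0 h array, and that of Psmb7 also without the WT 5 h array. Each immunoproteasome subunit gained on its counterpart in both genotypes at 5 h; these are values of single arrays without a test.

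Among 16 other genes of the 20S core, its assembly and its activators, 7 were higher at 5 h, 4 lower and 5 not called (median log2 change 0.25). Of all probe sets 20.8% were called higher and 49.8% lower. The rises were largest for the alpha-ring subunits Psma6 (1.35, adjusted p = 0.00106) and Psma5 (1.20, adjusted p = 0.00153), and the falls for the assembly chaperones Psmg2 (−1.58) and Psmg1 (−1.56). After median centring 12 of the 16 were called higher and 1 lower. Without the KO 0 h array 3 were called higher and 2 lower, and without the WT 0 h array 4 and 2.

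Psme1, the alpha subunit of PA28, read 3381, 2969 and 8021 in KO, against 3474, 3229.9 and 7303 in WT. The signals dipped at 1 h and were highest at 5 h in each genotype. The log2 change at 5 h was 1.16 (95% interval 0.83 to 1.49, SE 0.12; limma, adjusted p = 0.00196).

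The probe set shared by Psme2, the beta subunit of PA28, and Psme2b read 3024, 2778 and 9784 in KO, against 2936, 3055 and 9861 in WT. The genotypes lay close together at every time. Its log2 change at 5 h was 1.72 (95% interval 1.41 to 2.03, SE 0.11; limma, adjusted p = 0.000678), with an interval that overlaps that of Psme1. Psme3, which forms a separate nuclear activator, stood at 0.22 and did not pass (adjusted p = 0.136), but was called after quantile normalization (0.62, adjusted p = 0.00786) and median centring (0.98, adjusted p = 0.00212).

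Tap1, the first half-transporter of the TAP complex, read 942, 715 and 6709 in KO, against 802, 660.2 and 6663 in WT. Both 1 h signals were below those at 0 h, and both 5 h signals were several-fold above them. Its 5 h log2 change was 2.94 (95% interval 2.62 to 3.26, SE 0.12; limma, adjusted p = 0.000407), the largest of the members. At 1 h it was −0.34 (adjusted p = 0.149, unadjusted p = 0.0421), the lowest of the 8 genes.

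Tap1 has 3 further probe sets, all dim. The second read 4.66, 6.74 and 170.3 in KO, against 37.8, 6.16 and 180.0 in WT. Its log2 change at 5 h was 2.74 over both genotypes. Its KO signal at 0 h lay under the floor of 18.2 to which low signals were raised, so the KO change of 3.22 is a lower bound. This probe set exceeded an array median only at 5 h, so it entered the test only through the arrays where it was high. Its change is therefore no separate support for the rise of the brightest probe set. The others, at 5.36 to 8.70 in KO and 6.75 to 34.7 in WT and at 2.89 to 5.86 in KO and 6.77 to 24.3 in WT, never exceeded an array median and were not tested.

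Tap2, the partner of Tap1 in the transporter, read 635, 694 and 3068 in KO, against 619, 604 and 3196 in WT. Its signals at 0 h and 1 h differed little, and the 5 h signals stood well apart. Against 0 h, the 5 h log2 change was 2.32 (95% interval 1.99 to 2.65, SE 0.12; limma, adjusted p = 0.000478). Its interval overlaps that of Tap1, and its lower bound also reaches below the upper bound of the Psme2 probe set.

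Tapbp encodes tapasin, which bridges the transporter and the empty class I molecule, and was measured by 2 bright probe sets that moved by different amounts. The brighter read 8200.3, 7878 and 12819.7 in KO, against 8505, 8096 and 13192 in WT, and the dimmer read 1994, 1992 and 4997 in KO, against 1931, 1749.9 and 5226 in WT. Both were highest at 5 h in each genotype. The log2 change at 5 h was 0.64 for the brighter (95% interval 0.35 to 0.92, SE 0.10; limma, adjusted p = 0.00663) and 1.38 for the dimmer (95% interval 1.05 to 1.71, SE 0.12; adjusted p = 0.00124), and the intervals do not overlap. The brighter lost its call without the KO 0 h array (0.63, adjusted p = 0.0639) or the WT 0 h array (0.65, adjusted p = 0.0591).

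B2m encodes the light chain that every class I molecule needs to fold. The brighter of its 2 probe sets read 15653, 15298 and 17621 in KO, against 16293, 15218 and 19659 in WT, and the other 14349, 14815 and 14323 in KO, against 15586, 15237 and 16854 in WT. On the brighter probe set both 5 h signals lay above the other 4, while on the other the KO signal at 5 h was the lowest of the 6. Its 5 h log2 change was 0.22 (95% interval −0.08 to 0.53, SE 0.11; limma, adjusted p = 0.145) and 0.06 (95% interval −0.26 to 0.37; adjusted p = 0.691). After median centring the brighter stood at 0.98 (adjusted p = 0.00245). Its mean signal was at the 99.86th percentile of all probe sets, and the highest signal of any probe set on an array was 20645 to 25581. Whether so bright a probe set still follows its RNA was not tested.

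**Figure D2:**
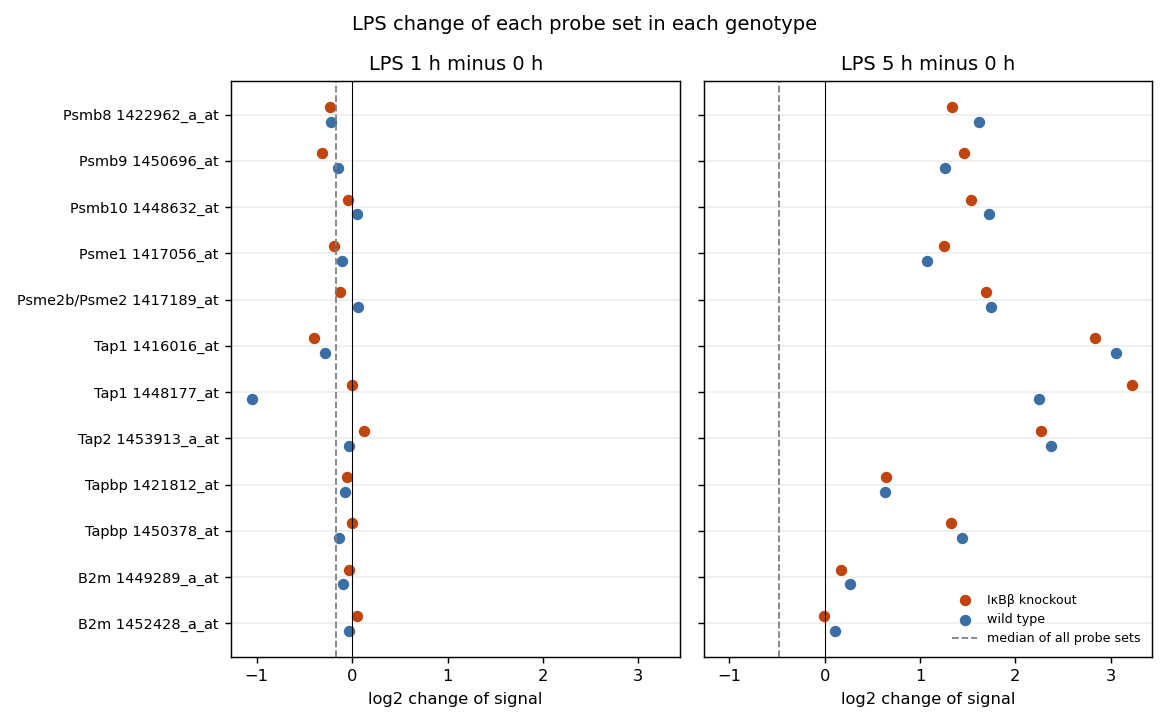
Log2 change of signal (x axis) at 1 h and at 5 h of LPS against 0 h for the 12 tested probe sets of the members (rows), with knockout above wild type in each row; the dashed line is the median of all probe sets. At 1 h nearly all points lie near 0, the exception being the dim Tap1 probe set in WT (−1.05), and at 5 h they run from −0.00257 for the second B2m probe set in KO to 3.22 for the dim Tap1 probe set in KO.

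In order of the 5 h change, with the brightest probe set of each gene, the members ran Tap1, Tap2, the Psme2 probe set, Psmb10, Psmb8, Psmb9, Psme1, Tapbp and B2m. The place of Tapbp depends on this choice, as its dimmer probe set rose by 1.38, more than Psmb9 (1.36) and Psme1 (1.16). All 8 pairs of neighbours in this order had overlapping 95% intervals, so the order of adjacent members is not set by these arrays, whereas the ends lie apart: the interval of Tap1 began at 2.62 and that of B2m ended at 0.53. All but B2m were called higher at 5 h against 1 h. Of all probe sets 19% were called higher and 41.8% lower (60.8% in all). Changes of the called members ran from 0.70 for Tapbp (1.45 on its dimmer probe set) to 3.28 for Tap1. At least 2-fold up at 1 h were 0 of the 8 genes in KO and 0 in WT, against 5.41% and 5.81% of all probe sets. Within a single genotype 6 of the 8 genes were at least 2-fold up at 5 h in KO and 6 in WT, against 13.9% and 14% of all probe sets. At 1 h 6 of the 8 genes read below 0 h in both genotypes, as did 57.3% of all probe sets. Under quantile normalization and median centring, with a median of all probe sets at 5 h of −0.12 and 0.28 in place of −0.48, the 8 genes kept their direction at 5 h.

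**Figure D3:**
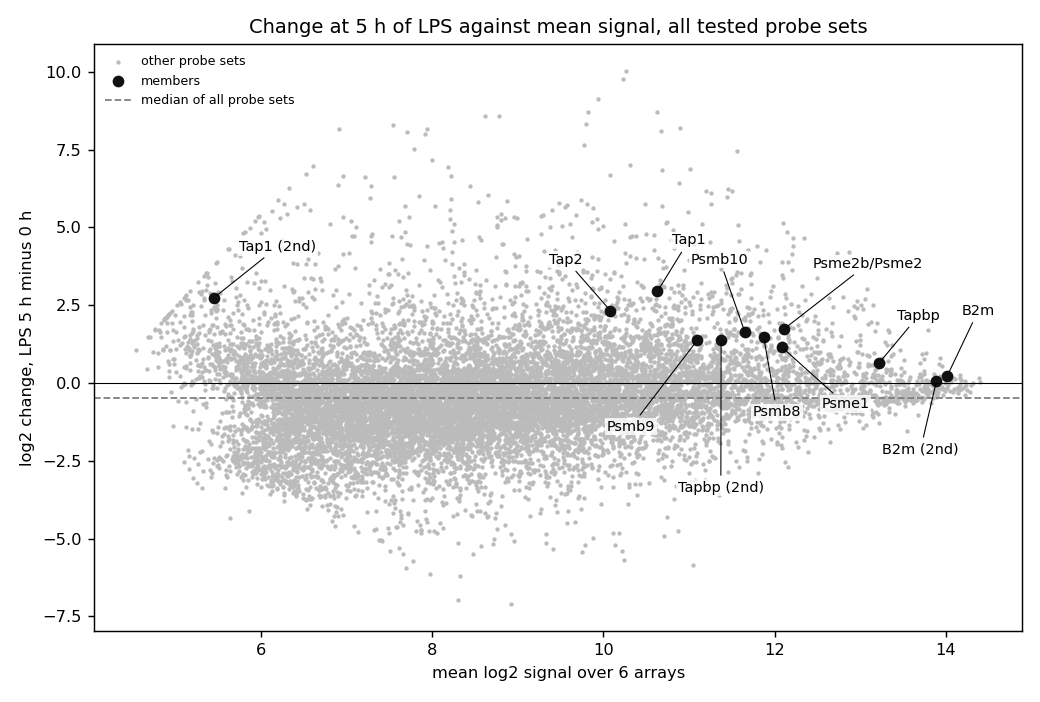
Log2 change at 5 h of LPS against 0 h (y axis, shared by both genotypes) plotted against the mean log2 signal over the 6 arrays (x axis) for the 13101 tested probe sets in grey, with the members in black and "2nd" marking a gene's dimmer probe set. The members lie above the dashed median of all probe sets (−0.48), most of them at high mean signal, and the spread of all changes narrows towards the brightest probe sets, where B2m and the brighter Tapbp probe set lie.

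Of the 8 genes 0 were called between KO and WT, against 0.0305% of all probe sets. Over the 3 times the log2 difference of KO minus WT ran from −0.07 for B2m (95% interval −0.32 to 0.18; limma, adjusted p = 0.819) to 0.15 for Psmb9 (95% interval −0.15 to 0.46; adjusted p = 0.681), and it was 0.12 for Tap1 (95% interval −0.14 to 0.38; adjusted p = 0.703). On the brightest probe sets, the 27 differences at single times of the 8 genes and the Psme2 probe set lay between −0.16 (B2m at 5 h) and 0.34 (Psmb9 at 5 h), and 0 of them reached 2-fold, against 2.16%, 3.11% and 4.63% of all probe sets at 0, 1 and 5 h. All 27 were within 1 SD of all probe sets at that time (0.37, 0.42 and 0.48), and also within 1 SD of those with a mean signal over 500, a cut chosen after the values were seen (0.27, 0.31 and 0.35). The second B2m probe set stood at −0.23 at 5 h, below the lowest of the 27 differences (−0.16) but within 1 SD by both measures. The second Tap1 probe set, with 3 of 6 signals under the floor, stood at −1.05 at 0 h and −0.38 over the 3 times (limma, adjusted p = 0.663). The 5 h change in KO minus that in WT ran from −0.29 for Psmb8 to 0.20 for Psmb9, as values of single arrays with no test. The intervals do not show that the genotypes are alike.

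**Figure D4:**
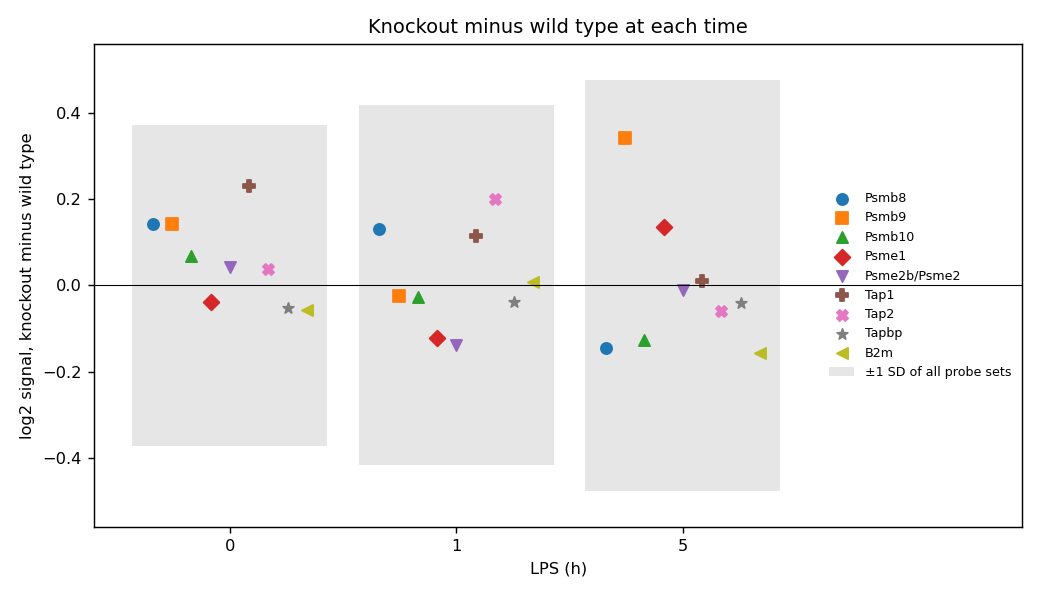
Log2 signal of knockout minus wild type (y axis) at 0, 1 and 5 h of LPS (x axis, categories) for each member's brightest probe set and the shared Psme2 probe set; each marker compares 2 single arrays and the grey bars span 1 SD of all probe sets either side of 0. All 27 markers lie inside the bars, with Psmb9 at 5 h (0.34) the highest.

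Other genes of the pathway were read at 5 h by role, where 20.8% of all probe sets were called higher and 49.8% lower. Of 5 tested class I heavy chain genes 2 were called higher, 0 lower and 3 neither, and the median log2 change was 0.24. Without the WT 0 h array 1 was called higher, and after median centring 4 were. The non-classical genes H2-T24 (1.78, adjusted p = 0.00254) and H2-M3 (0.67, adjusted p = 0.00676) rose. The classical heavy chain gene H2-D1 read 15784, 14934 and 15075 in KO, against 16536, 14575 and 16579.9 in WT, and did not pass (−0.03, adjusted p = 0.819), but stood at 0.73 after median centring (adjusted p = 0.00768). H2-K1 stood at −0.35 (adjusted p = 0.0527), at −0.41 after quantile normalization (adjusted p = 0.0304) and at 0.41 after median centring (adjusted p = 0.0525). Heavy chain genes are near-identical in places, and 11 probe sets annotated to several genes hold such a gene, so signals of single heavy chains are uncertain. The mean signals of H2-D1 and H2-K1 were at the 99.78th and 99.75th percentile of all probe sets. Whether probe sets this bright still follow their RNA was not tested.

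Of 4 tested genes whose proteins also pair with B2m, 4 fell at 5 h, with a median log2 change of −1.88. Among all probe sets 49.8% were called lower, with a median of −0.48. Hfe, which limits iron uptake, read 3595, 2776 and 495 in KO, against 3230.0, 2437 and 552 in WT, a log2 change of −2.70 (limma, adjusted p = 0.000468). Mr1, which presents vitamin B metabolites, fell by 2.51, the IgG carrier gene Fcgrt by 1.26, and the lipid-presenting Cd1d1 by 0.88 but by 0.12 after median centring (adjusted p = 0.577). Of these genes 3 were called lower after median centring and 3 after quantile normalization.

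Among 12 genes of peptide trimming and folding in the endoplasmic reticulum or cytosol, 3 were higher, 4 lower and 5 not called at 5 h. The shares over all probe sets were 20.8% higher and 49.8% lower. After quantile normalization 6 were called higher, and after median centring 7 higher and 0 lower. Without the KO 0 h, WT 0 h or WT 5 h array 1 was called lower, and without either 1 h array 2. Tapbpl, a relative of tapasin that edits peptides, read 296, 290.2 and 798 in KO, against 281, 224 and 709 in WT, and rose by 1.38 (limma, adjusted p = 0.00144). Hspa5, the chaperone BiP, rose by 0.99 and the aminopeptidase gene Npepps by 0.52. The peptidase gene Thop1 fell by 1.30 (adjusted p = 0.0102), which was −0.54 after median centring (adjusted p = 0.0764), and Pdia3, Canx and Sec61a1 fell by 0.56, 0.41 and 0.40 but stood at 0.21, 0.35 and 0.36 after median centring. Erap1, the trimming aminopeptidase of the endoplasmic reticulum, stood at 0.39 (adjusted p = 0.144), at 0.82 after quantile normalization (adjusted p = 0.0223) and at 1.15 after median centring (adjusted p = 0.00512). Calr stood at −0.04 (adjusted p = 0.765) and at 0.72 after median centring (adjusted p = 0.00734).

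Of 14 tested regulators 3 were higher, 2 lower and 9 not called at 1 h. At 5 h 8 were higher, 3 lower and 3 not called. Over all probe sets 5.32% were higher and 4.6% lower at 1 h, and 20.8% and 49.8% at 5 h. Leaving out any 1 of the 6 arrays left 1 call higher and 0 or 1 lower at 1 h. Ifnb1, the interferon beta gene, read 50.3, 1955 and 81.4 in KO, against 88.2, 1629 and 127 in WT. It was highest at 1 h in both genotypes, where 0 of the 8 member genes were called. Stat2, a subunit of the interferon-activated factor ISGF3, read 458, 282 and 3239 in KO, against 398, 232 and 3122 in WT, with log2 changes of −0.74 at 1 h (limma, adjusted p = 0.0376; 0.0531 after quantile normalization) and 2.90 at 5 h (adjusted p = 0.00041). Irf1, an activator of class I genes, read 1355, 2529 and 5325 in KO, against 1171, 5219 and 6882 in WT. Its log2 change was 1.53 at 1 h (limma, adjusted p = 0.0632) and 2.26 at 5 h (adjusted p = 0.0044). After median centring the 1 h change was 1.71 (adjusted p = 0.0221). The genotypes differed at 1 h: the log2 change of Irf1 was 0.90 in KO and 2.16 in WT. KO minus WT was −1.05 at that time, and these are values of single arrays without a test. Irf8 read 3579, 1865 and 9140.5 in KO, against 3614, 1733 and 7463 in WT, lower at 1 h (adjusted p = 0.0239) and higher at 5 h (adjusted p = 0.00203). Ifngr1, a chain of the interferon gamma receptor, fell by 2.37 at 5 h. Rfxank and Rfxap, subunits of the X-box factor RFX, fell by 1.87 and 0.99, but Rfxap by 0.23 after median centring (adjusted p = 0.416).

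**Figure D5:**
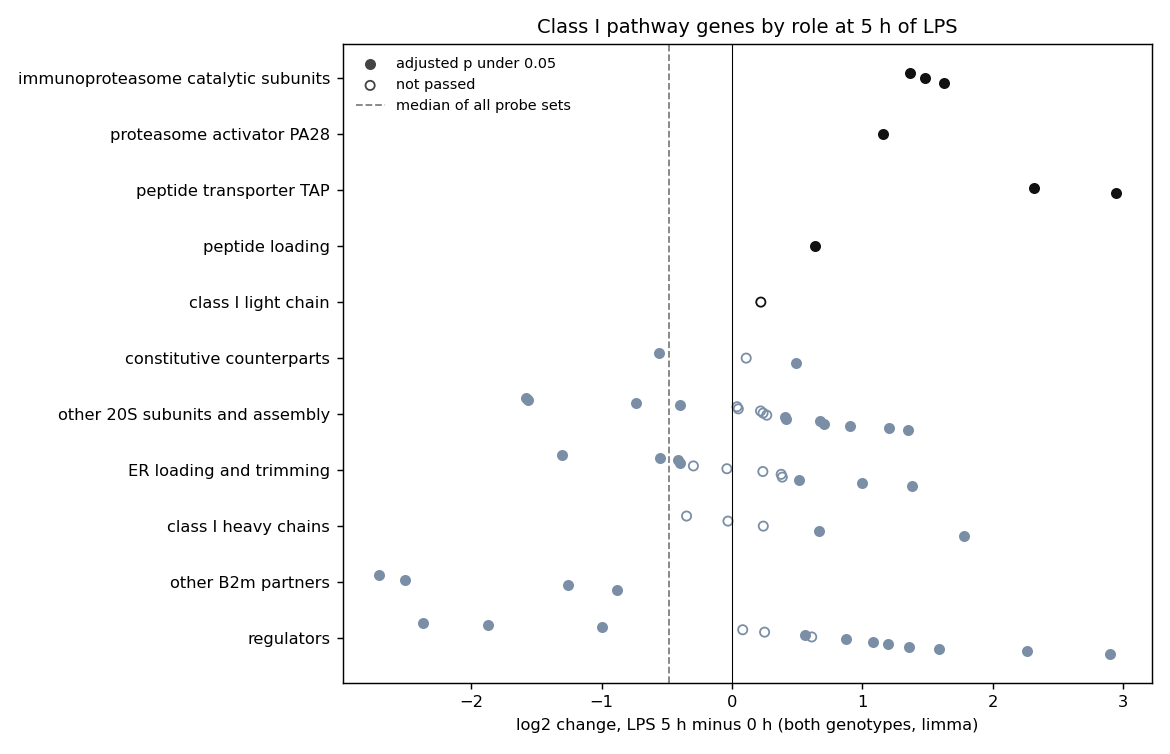
Log2 change at 5 h of LPS against 0 h (x axis, shared by both genotypes) of the members (black) and of other class I pathway genes (blue-grey) by role; each point is the brightest probe set of 1 gene, filled where limma's adjusted p was under 0.05. The members other than B2m lie between 0.64 and 2.94, the constitutive counterparts between −0.56 and 0.49, and the other partners of B2m between −2.70 and −0.88.

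Likeness of pattern was measured as the root mean square difference of log2 signal over the 6 arrays, each gene centred on its own mean, against 7498 other genes. The nearest genes outside the members were Rmdn3 (0.12), Inpp5b (0.12) and Irgm2 (0.16) for Tap1, Tdrd7 (0.06), Mcmbp (0.08) and Samhd1 (0.08) for Tap2, and Wdr43 (0.06), Rars (0.08) and Ankib1 (0.08) for Psmb8. For Psmb9 they were Aftph (0.07), Pik3cd (0.07) and Cdk14 (0.09), for Psmb10 Phc2 (0.04), Tspo (0.06) and Csrp1 (0.07), and for Psme1 Cnep1r1 (0.04), Gnptab (0.05) and Trmt1l (0.05). For Tapbp they were Cct8, Rac2 and Ywhag (0.03 each), and for B2m Prmt2 (0.03), Arf1 (0.04) and Ifitm3 (0.04). Among the members with a probe set of their own, none was another's closest match. Psmb10 and Psmb8 were 0.11 apart, at place 9 among the genes nearest Psmb8, and Tap2 was at place 76 among those nearest Tap1. The shared Psme2 probe set was not among those compared, so its distance to the members is not given.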

How the data were processed

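The authors deposited intensity values on a linear scale for 22690 probe sets on each of 6 Mouse Genome 430A 2.0 arrays, made with MAS5 per the submitters' processing notes. The labels name no MAS5 version or settings. A platform annotation gave 20380 probe sets 1 symbol, 691 several and 1555 none, beside 64 controls; 20351 symbols were matched to a RefSeq table by gene ID.

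Low signals were set to the 25th percentile (18.2) and then taken to log2. Tested were the 13101 probe sets with a signal over the array median on any array; for each gene the probe set of highest mean signal was read. On all 6 arrays limma 3.58.1 (R 4.3.3) fitted genotype and time as additive terms, with Benjamini-Hochberg adjustment over all tested probe sets. There were 2 residual degrees of freedom, plus 2.23 from the prior. With 1 array a group, p-values rest on how far the genotypes depart from parallel time courses and leave out the spread between animals, and the number of arrays limits the precision. The procedure was tested on simulated data. Changes within a genotype and differences at 1 time have no test. Alternatives were another floor, an offset, 2 scalings, no filter, 2 gene-level fits and leaving out each array. The members, pathway lists, markers and likeness rule were chosen with earlier results of these data known. Named are the members, called and other listed pathway genes, some cell type markers, the 3 nearest genes by likeness and the label checks.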

Additional observations from a re-analysis of the deposited data

Results flagged for a closer look

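Changes that ran in opposite directions in KO and WT, with every signal above the floor, were all small, and the difference was not tested. At 1 h of LPS the log2 change of Tap2 was 0.128 in KO and −0.0342 in WT, and that of Psmb10 was −0.0475 in KO and 0.0474 in WT. The probe set shared by Psme2 and Psme2b gave −0.123 in KO and 0.0574 in WT at 1 h. The second B2m probe set gave 0.0462 in KO and −0.0327 in WT at 1 h, and −0.00257 in KO and 0.113 in WT at 5 h.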

How the results depend on the processing

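Over the alternatives run, 6 to 8 member genes were called higher at 5 h and at 5 h against 1 h, and 0 at 1 h or between genotypes. Median centring gave B2m a call (0.98 at 5 h, and 0.87 at 5 h against 1 h). It turned 1 h changes to 0.112 for B2m, 0.178 for Psmb10, 0.0318 for Psme1, 0.146 for the Psme2 probe set and 0.114 for Tapbp. It turned KO minus WT to 0.0263 for Psmb10, 0.0458 for Psme1, 0.0191 for the Psme2 probe set and 0.00987 for Tapbp. Quantile normalization turned KO minus WT to 0.0566 for B2m, 0.00118 for Psme1 and 0.0374 for Tapbp, and the mean of a gene's probe sets turned it to −0.129 for Tap1 and 0.00588 for Tapbp. Leaving out 1 array at a time, KO minus WT ranged over −0.0762 to 0.0208 for Psmb10, −0.00732 to 0.137 for Psmb8, −0.0804 to 0.0480 for Psme1, −0.0743 to 0.0157 for the Psme2 probe set and −0.0106 to 0.119 for Tap2. The 1 h change ranged over −0.0723 to 0.0722 for Psmb10, −0.109 to 0.0439 for the Psme2 probe set and −0.0585 to 0.152 for Tap2. None of these turned values was called, and the cause was not tested. Tapbp at 5 h stood at 0.50 after quantile normalization, 1.40 after median centring and 1.01 as the mean of its probe sets, all called. Leaving out 1 array at a time it ranged over 0.63 to 0.65, losing its call as given above, and it lost it at 5 h against 1 h without the KO 1 h array (0.71, adjusted p = 0.0535) or the WT 1 h array (0.70, adjusted p = 0.0534). Of all calls at 5 h 29.4% were higher; quantile normalization gave 44% and median centring 62.9%. At 1 h the shares were 53.6%, 63.9% and 70.9%, and the 697 higher and 603 lower calls dropped to 110 and 10 without the WT 1 h array. No paired analysis was possible because the labels carry no replicate numbers and each group has 1 array; the genotype term already compares the times within each genotype.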
